A study of Mus musculus with 4 samples.

Results

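The loci described here are those of 6 mouse genes, Il1rl1, Il18r1, Il1r2, Areg, Pparg and Nfil3, in a ChIP-seq study of JunB in regulatory T (Treg) cells. They were chosen by name as genes of the alarmin response of tissue Treg cells, and their members are the listed binding peaks whose centre lies within 50 kb of any annotated transcription start site (TSS) of these genes in the mouse genome assembly mm9. Of 103355 peaks listed in all, 87 met this rule: 27 of 29659 JunB peaks, 16 of 13570 BATF peaks, 25 of 31093 IRF4 peaks from Junb-sufficient cells and 19 of 29033 IRF4 peaks from Junb-deficient cells. Merged where they touched, these peaks formed 36 sites.

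In ChIP-seq an antibody pulls down a protein together with the DNA it is bound to, and peaks are positions where the sequenced DNA piles up above its surroundings. Splenic CD4+CD25+ Treg cells of C57BL/6 mice were activated in culture with anti-CD3, anti-CD28 and IL-2, for 60 h. Chromatin of Junb-sufficient cells was precipitated for JunB, BATF and IRF4, and that of Junb-deficient cells for IRF4, with 1 library for each of these 4 conditions. The sample labels give the genotypes as Foxp3cre JUNB+/+ and Foxp3cre JUNBFl/Fl, whereas the study's methods give Junb fl/fl and Cd4Cre Junb fl/fl, in which Cre acts in all T cells and not only in Treg cells. The mice of the study were between 6 and 12 weeks old by its methods, and the number behind each library was not given in the sources used here. All cells came from spleen, so tissue Treg cells themselves were not sampled, and peak lists hold no transcripts by which the cell type could be checked. In 1 label field BATF and IRF4 are swapped as antibodies for the Junb-sufficient libraries. The sample titles were followed, so every statement on BATF or on Junb-sufficient IRF4 rests on them, and the values of the IRF4 comparison with the antibodies exchanged are given together after it.

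Alarmins are cytokines such as IL-33, IL-18 and IL-1 that damaged or stressed tissue releases. Treg cells that settle in fat, muscle, lung and skin respond to them through receptors of the IL-1 family. Il1rl1 encodes ST2, the receptor of IL-33. Il18r1 encodes the ligand-binding chain of the IL-18 receptor. Il1r2 encodes a decoy receptor that binds IL-1 without signalling. Areg encodes amphiregulin, a ligand of the epidermal growth factor receptor that takes part in tissue repair. Pparg encodes a lipid-sensing nuclear receptor known for its role in fat-resident Treg cells, and Nfil3 encodes a basic leucine zipper transcription factor. JunB can pair with BATF to bind AP-1 sequences in DNA, and in T cells such pairs can bind together with IRF4 at composite elements termed AICE.

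The sequences below are the JunB peaks at the sites that carry most of the findings, as the mm9 reference gives them on the plus strand, 5′ to 3′, each 151 bp long. Capitals mark letters that match AP-1 (TGACTCA, or TGAGTCA as its reverse complement), AICE (GAAATGANTCA or GAAATGANTAA, or TTTC followed by 4 bases and TGANTCA or TGANTAA), EICE (GGAANNGAAA) or ISRE (GAAANNGAAA), which are other elements that IRF factors bind, or CRE (TGACGTCA, an element of basic leucine zipper factors that was searched only after the sequences were seen), all on both strands. An AP-1 match may lie inside an AICE match. The first 8 are sites listed for JunB, BATF and IRF4, taken by place in the IRF4 list with at most 2 per gene, and show what sequence stood under the strongest shared binding. The last 4 were added after their values were seen. Of these, 2 stood at IRF4 peaks that were missing or far lower in Junb-deficient cells, 1 held the only AICE match of these loci, and 1 stood within Areg.
Il1rl1, 16.4 kb upstream, chr1:40470001-40470151: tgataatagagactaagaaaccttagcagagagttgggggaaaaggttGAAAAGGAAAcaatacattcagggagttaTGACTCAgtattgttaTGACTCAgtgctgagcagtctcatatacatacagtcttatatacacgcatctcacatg
Il1r2, 30.7 kb upstream, chr1:40110823-40110973: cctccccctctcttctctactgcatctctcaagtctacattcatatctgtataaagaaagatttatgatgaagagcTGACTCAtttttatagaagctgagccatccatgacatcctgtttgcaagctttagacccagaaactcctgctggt
Pparg, 45.2 kb upstream, chr6:115265979-115266129: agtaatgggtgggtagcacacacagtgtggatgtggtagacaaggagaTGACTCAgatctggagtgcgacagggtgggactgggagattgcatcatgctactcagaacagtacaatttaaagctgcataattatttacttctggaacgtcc
Il1r2, 28.8 kb upstream, chr1:40112836-40112986: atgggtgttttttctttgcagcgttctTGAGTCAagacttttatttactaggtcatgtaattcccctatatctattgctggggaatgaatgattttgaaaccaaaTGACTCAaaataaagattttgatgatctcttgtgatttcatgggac
Nfil3, 4.72 kb downstream, chr13:53071634-53071784: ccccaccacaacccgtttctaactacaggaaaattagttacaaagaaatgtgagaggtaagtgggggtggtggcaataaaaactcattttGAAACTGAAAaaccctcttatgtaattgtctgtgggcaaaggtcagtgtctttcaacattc
Nfil3, 4.90 kb upstream, chr13:53081257-53081407: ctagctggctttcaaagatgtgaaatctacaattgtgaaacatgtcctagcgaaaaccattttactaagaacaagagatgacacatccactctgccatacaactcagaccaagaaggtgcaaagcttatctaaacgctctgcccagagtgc
Il18r1, 4.06 kb downstream, chr1:40526760-40526910: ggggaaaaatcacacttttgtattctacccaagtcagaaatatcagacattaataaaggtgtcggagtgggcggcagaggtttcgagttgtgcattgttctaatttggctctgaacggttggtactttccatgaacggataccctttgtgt
Il18r1, 9.87 kb downstream, chr1:40532657-40532807: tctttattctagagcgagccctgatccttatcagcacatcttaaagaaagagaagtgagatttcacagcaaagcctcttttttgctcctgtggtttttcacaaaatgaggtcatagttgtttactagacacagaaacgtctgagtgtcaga
Pparg, 16.0 kb downstream, chr6:115388018-115388168: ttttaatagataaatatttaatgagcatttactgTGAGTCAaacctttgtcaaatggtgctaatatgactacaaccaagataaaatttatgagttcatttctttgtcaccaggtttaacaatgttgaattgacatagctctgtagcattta
Il1rl1, 36.2 kb upstream, chr1:40450161-40450311: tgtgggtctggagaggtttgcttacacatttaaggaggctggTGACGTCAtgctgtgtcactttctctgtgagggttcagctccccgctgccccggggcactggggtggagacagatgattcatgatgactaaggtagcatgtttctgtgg
Nfil3, 4.51 kb upstream, chr13:53080874-53081024: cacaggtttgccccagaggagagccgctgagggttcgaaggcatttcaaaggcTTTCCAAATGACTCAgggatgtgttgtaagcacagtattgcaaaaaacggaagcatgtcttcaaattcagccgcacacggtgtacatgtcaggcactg
Areg, 4.44 kb downstream, chr5:91573002-91573152: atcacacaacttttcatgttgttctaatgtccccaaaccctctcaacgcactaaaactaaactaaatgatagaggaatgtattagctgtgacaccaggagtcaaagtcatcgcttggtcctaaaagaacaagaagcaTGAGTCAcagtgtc

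Some JunB peaks at these loci held AP-1 letters and most did not. An AP-1 match lay in 9 of the 27 JunB peaks (33.3%, exact Clopper-Pearson 95% interval 16.5 to 54%), against 22.8% of all JunB peaks, and within 100 bp of the centre of 7 of the 25 Junb-sufficient IRF4 peaks (28.0%, 12.1 to 49.4%), against 26.4% of all. Both shares were near those over all peaks. Of the 6 JunB peaks that stood in the first 5% of their list, 4 held AP-1 letters: those 30.7 kb upstream of Il1r2, 16.4 kb upstream of Il1rl1, and 45.2 kb upstream and 16.0 kb downstream of a TSS of Pparg. The share with AP-1 letters over all JunB peaks of the first 5% was not counted, so these 4 show no excess at the loci. The peak upstream of Il1rl1 held TGACTCA at 2 positions and an ISRE match, GAAAAGGAAA, and the peak 28.8 kb upstream of Il1r2 held both TGAGTCA and TGACTCA. The other 2 of the first 5% held no AP-1 match. The JunB peak 36.2 kb upstream of Il1rl1 held TGACGTCA, which lay in 1 of the 27 peaks (3.70%, 0.0937 to 19%) and in 73 of all JunB peaks (0.246%). The peak 4.89 kb upstream of Nfil3 and both shared sites within Il18r1 held none of the letters searched. An ISRE match lay in 3 of the 27 JunB peaks (11.1%, against 5.09% of all) and an EICE match in 1 (3.70%, against 2.16%). An AICE match lay in 1 of 27 JunB peaks (3.70%, against 3.42% of all), as TTTCCAAATGACTCA 4.51 kb upstream of Nfil3. No AICE match lay within 100 bp of the centre of the 25 IRF4 peaks, which allows a share of up to 12.0% (3 counts of the total, or 13.7% by the exact interval), against 4.03% of all. All intervals and limits are over peaks of 1 library and cover counting error only.

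A larger share of the JunB peaks at the 6 loci lay with BATF and IRF4 than of all JunB peaks. Of 27 JunB peaks, 14 overlapped BATF and IRF4 peaks by at least 1 bp each (51.9%, interval 31.9 to 71.3%), against 30.1% of all JunB peaks, and 7 overlapped neither (25.9%, 11.1 to 46.3%), against 54.3%. Of the rest, 4 overlapped IRF4 alone and 2 overlapped BATF alone. Of 16 BATF peaks, 15 overlapped JunB (93.8%, 69.8 to 99.8%), against 70.7% of all, and 15 overlapped IRF4 (93.8%), near the 88.6% of all. The interval includes both shares over all BATF peaks. JunB peaks were 151 bp wide and BATF and IRF4 peaks about 4 times as wide, at 605 to 613 bp, and with JunB peaks widened to 613 bp the share overlapping both was 55.6%. Within 25 kb of a TSS it was 42.1% (20.3 to 66.5%), an interval that includes the share over all JunB peaks. All JunB peaks were taken at any distance from a gene, whereas those of the loci lay within 50 kb of a TSS by rule. Whether the larger share holds against JunB peaks near genes, or at similar places in the JunB list, was not tested. For peaks around genes, the paper reports more such overlap near genes of effector Treg cells than around genes as a whole.

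Little of the binding lay at a TSS. Of the 36 sites, 17 were intergenic, 18 lay in introns and 1 lay in a UTR of Il18rap. A single site covered a TSS of these genes. It was the JunB peak from 40522314 to 40522464 of chromosome 1, over the first TSS of Il18r1, which stood low in its list (place 24019 of 29659, 81.0% down the list) with no BATF or IRF4 peak on it. Il1rl1 and Il18r1 are neighbours on chromosome 1, so 16 peaks in 7 sites lay within 50 kb of both. The map of listed peaks shows where they fell.

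**Figure D1:**
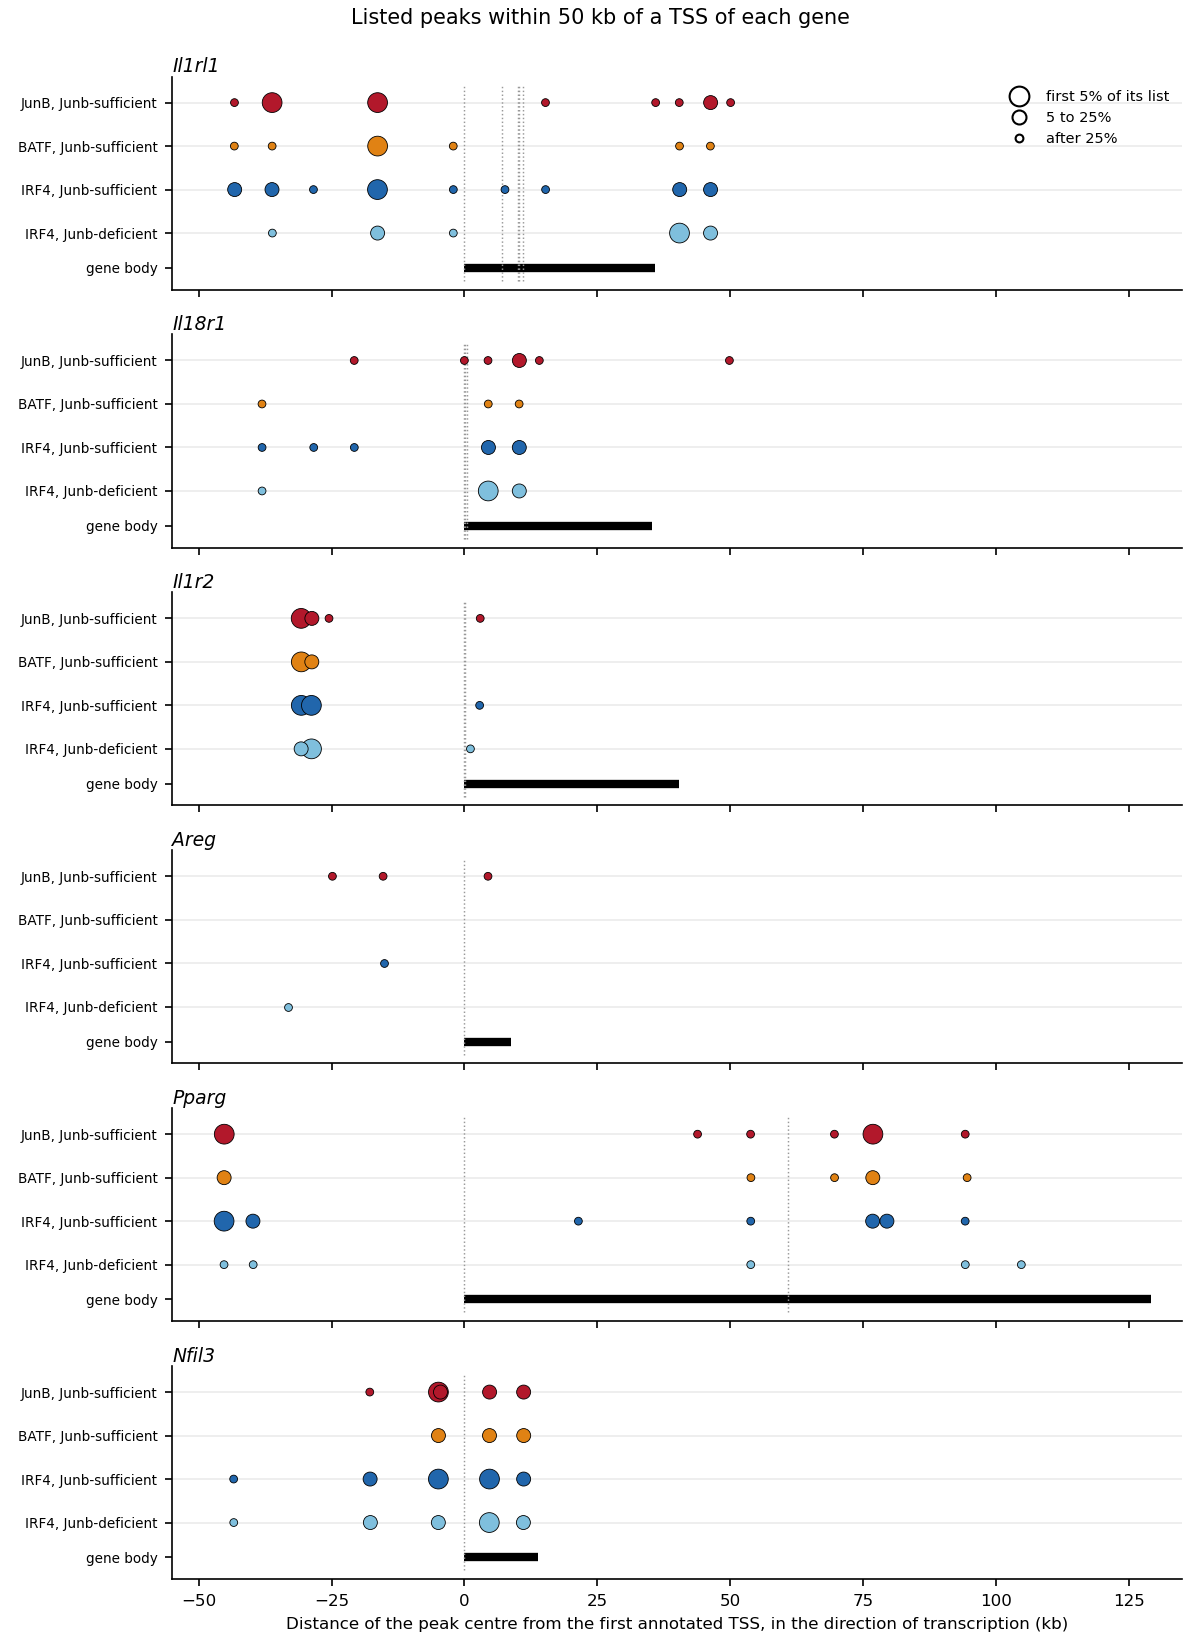
Listed peaks within 50 kb of a TSS of each gene, with the distance of the peak centre from the first annotated TSS in kb on the x axis and the 4 libraries on the y axis. Dot size gives the place in the list (first 5%, 5 to 25%, or after 25%), dotted lines mark annotated TSSs and black bars the gene bodies. Peaks near both Il1rl1 and Il18r1 are drawn in both panels, and Areg has no BATF peak.

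The number of peaks differed widely among the genes. Within 50 kb of Il1rl1 there were 8 JunB, 6 BATF and 9 Junb-sufficient IRF4 peaks. Of 22350 protein-coding genes counted in the same way, 2.80% had as many JunB peaks or more, 0.962% as many BATF peaks and 1.54% as many IRF4 peaks. Pparg had 6 JunB, 5 BATF and 7 IRF4 peaks, numbers that 5.97%, 2.08% and 5.25% of genes reached. The medians over all genes were 1, 0 and 2 peaks. The TSSs of Il1rl1 and Pparg are spread out, so their windows were 111 and 161 kb against 100 kb for the others.

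Il18r1 had 6 JunB, 3 BATF and 5 IRF4 peaks, Nfil3 had 5, 3 and 5, and Il1r2 had 4, 2 and 3. Areg stood apart, with 3 JunB peaks, 1 IRF4 peak and no BATF peak. The BATF peak nearest to any of its JunB peaks was centred 436961 bp away. Between 3 and 5 peaks of IRF4 were listed near each gene but Areg in Junb-deficient cells: 5 near Il1rl1, Pparg and Nfil3, 3 near Il18r1 and Il1r2, and 1 near Areg. Il1rl1 thus had 9 IRF4 peaks in one genotype and 5 in the other, and 16.6% of genes had 5 or more in Junb-deficient cells, whereas Nfil3 had 5 in both lists.

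**Figure D2:**
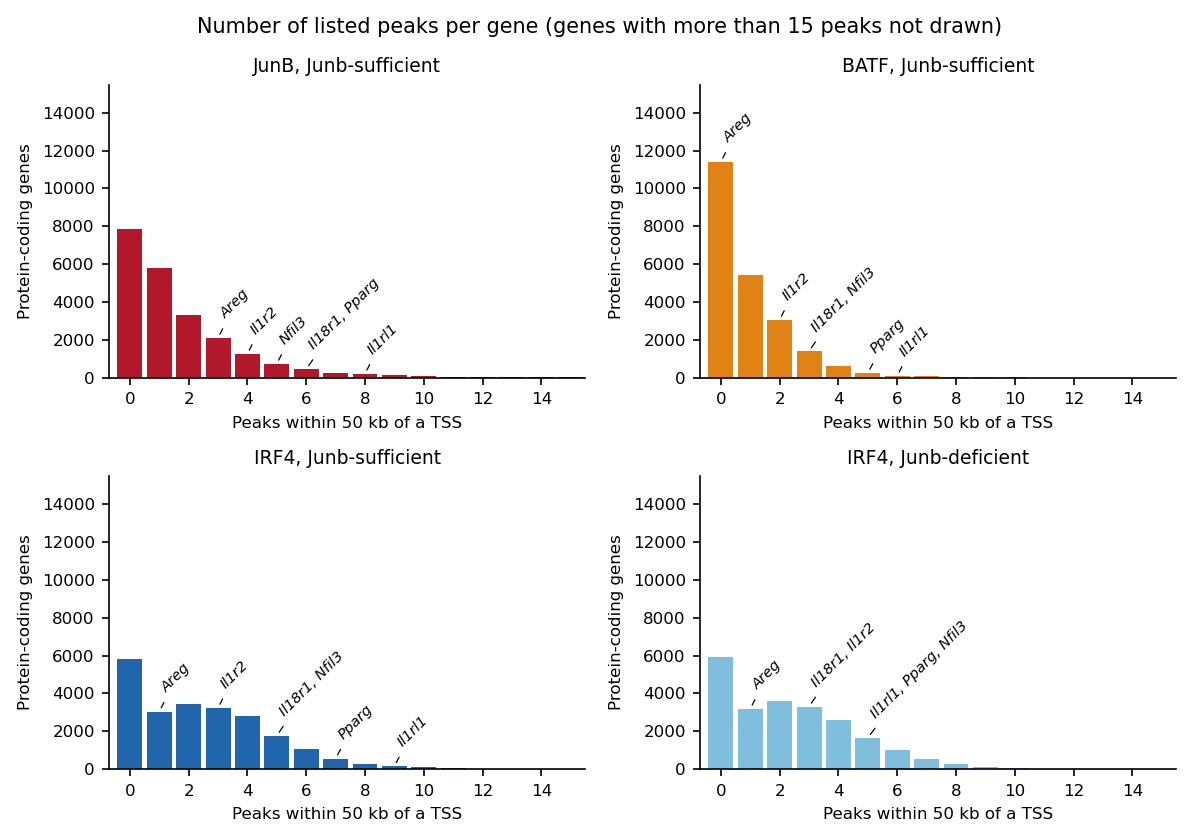
Histograms of the number of listed peaks within 50 kb of a TSS (x axis) over 22350 protein-coding genes (y axis, number of genes), 1 panel for each of the 4 libraries, with the 6 genes marked at their own counts. Il1rl1 lies furthest right in all panels but the last, where it shares its count of 5 with Pparg and Nfil3.

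The files give each peak the same score, so binding strength was read only from the place in the list. The headers do not name the order. It was taken as strength because the share of Junb-sufficient IRF4 peaks without a Junb-deficient counterpart rose from 5.05% in the first decile (10%) of the list to 67.9% in the last. This check was made on that list alone. In the JunB list, some peaks of chromosome 1 held consecutive places in order of coordinate, 13813 and 13814 as well as 26016 and 26017. Low JunB places may thus partly follow position on the chromosome, which was not tested, and they are a coarse reading of strength. A place is a rank within 1 library, and a shift of place is given in percentage points of the list, Junb-deficient minus Junb-sufficient.

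Over the 6 loci, 9 of 25 Junb-sufficient IRF4 peaks were not listed in Junb-deficient cells, that is, no IRF4 peak there overlapped them (36.0%, interval 18 to 57.5%), against 35.0% of all IRF4 peaks. The loci's peaks stood high in the list, with 7 in the first decile and 20 in the first 50%, and the shares over all peaks of the same deciles would give 5.42 such peaks (21.7%). At sites with both JunB and BATF, 2 of 14 IRF4 peaks were missing (14.3%, 1.78 to 42.8%), against 16.4% of all, and away from both 4 of 6 were missing (66.7%, 22.3 to 95.7%), against 45.8%. In the other direction, 3 of 19 Junb-deficient IRF4 peaks had no Junb-sufficient counterpart (15.8%, 3.38 to 39.6%), against 30.4% of all, and none of the 3 overlapped a JunB or BATF peak. The intervals of these 4 shares each included the share over all peaks.

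Among the 16 IRF4 peaks listed in both genotypes, 11 stood lower in the Junb-deficient list (68.8%, 41.3 to 89%), against 51.4% of all pairs. The shift depended on the place itself, with medians over all pairs of 1.32, 3.33, 3.13 and 2.22 points in the first 4 deciles and -16.1 points in the last. The median shift of the 16 pairs was 6.87 points, the medians of their own deciles averaged 1.78 points, and 10 of the 16 lay above the median of their decile. The shares of the same deciles would put 61.5% of these pairs lower. A shift of at least 25 points downwards was found in 3 of 16 (18.8%, 4.05 to 45.6%), against 11.5% of all pairs and 11.2% by decile. Since 12 of the 16 stood in the first 25% of the list and could not move up by as much, upward shifts of that size were not counted. Together, 20 of 25 peaks were missing or lower (80%, 59.3 to 93.2%), against 68.4% of all and 67.7% by decile. The intervals of these shares also included the values over all peaks and by decile. The recorded tags were 23914441 in the Junb-sufficient and 21127029 in the Junb-deficient IRF4 library, and 12.76% and 11.15% of them fell in peaks. The part of this difference in the places was not tested, and with 1 library per genotype no test between genotypes was possible.

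The exchange of antibodies was planned for the missing peaks and extended to places after these values were seen, as was the reading by decile. With the antibodies exchanged, the list titled BATF became the IRF4 list of Junb-sufficient cells. Then 3 of 16 peaks were missing in Junb-deficient cells (18.8%, 4.05 to 45.6%), against 25.2% of all, and 7 of the 13 pairs stood lower (53.8%, 25.1 to 80.8%), against 26.9%, with 2 of 13 lower by at least 25 points (15.4%, 1.92 to 45.4%), against 6.28%. In the other direction 6 of 19 Junb-deficient peaks had no counterpart (31.6%, 12.6 to 56.6%), against 65.0%, an interval that does not include the share over all peaks. The exchange left 1 missing and 3 lower of 4 peaks nearest to Il1rl1, and 2 missing, 2 lower and 1 higher of 5 nearest to Pparg. It left 1 lower and 2 higher near Nfil3, 1 lower and 1 higher near Il1r2, both peaks nearest to Il18r1 higher, and no peak near Areg. Single sites changed more, and those within Il18r1 went from 50% to 1.55% and from 71.2% to 6.47% of the list. The shift 36.2 kb upstream of Il1rl1 became 35.4 points, and that 28.8 kb upstream of Il1r2 became -5.76 points. The peaks missing at sites with all 3 factors, near Il1rl1 and Pparg, were missing under both namings, which the exchange could not change. No Junb-deficient IRF4 peak lay on either site. All values that follow use the titles.

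The direction differed from gene to gene, as the plot of places in the IRF4 lists shows. Of the 7 IRF4 peaks nearest to Il1rl1, 4 were missing and 3 stood lower. All 9 within 50 kb of it include the 2 nearest to Il18r1, which stood higher. Of these 9, 7 were missing or lower (77.8%, 40 to 97.2%), against 68.4% of all IRF4 peaks. Near Pparg 3 of 7 were missing, 3 stood lower and 1 higher. Near Nfil3 none of 5 was missing, 3 stood lower and 2 higher. Both IRF4 peaks nearest to Il18r1 stood higher, whereas of all 5 within 50 kb of it, 3 of them nearer to Il1rl1, 2 were missing and 1 stood lower (3 of 5, 60.0%, 14.7 to 94.7%). Il1r2 had 1 missing and 2 lower, and the single IRF4 peak of Areg was missing. The difference in direction between genes was not tested.

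**Figure D3:**
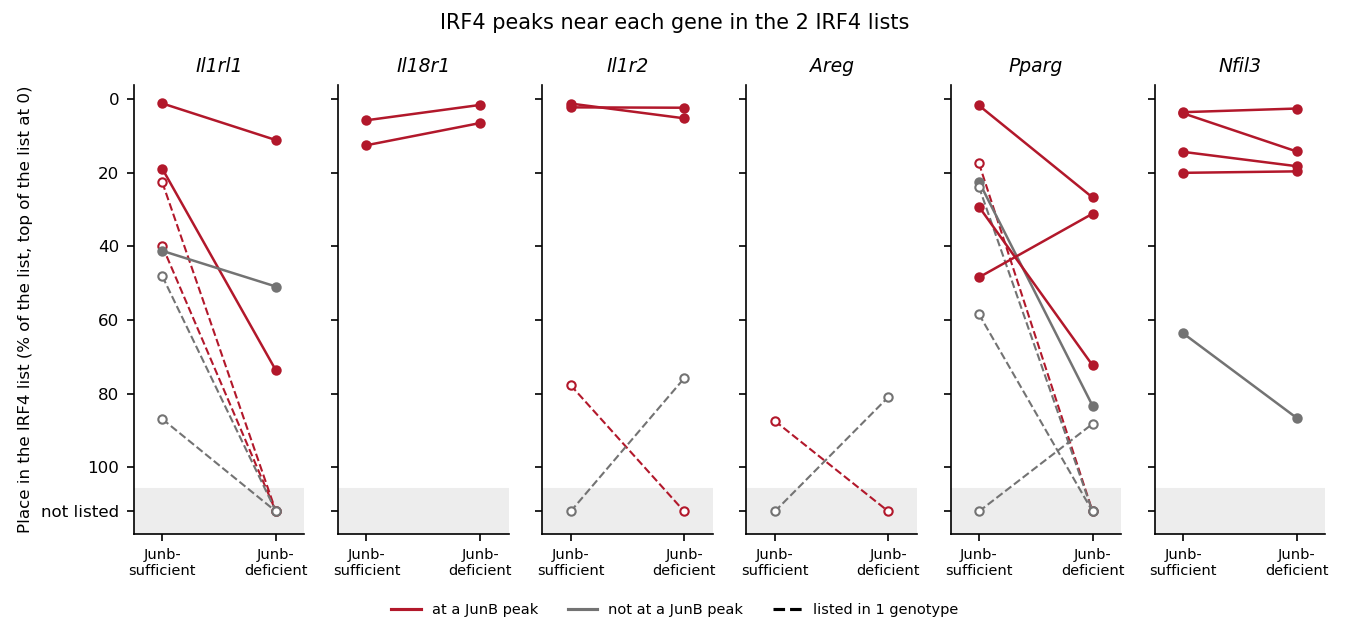
Place of each IRF4 peak in the Junb-sufficient and Junb-deficient lists, in percent of the list with the top at 0 (y axis), 1 panel per nearest gene. Lines join the same peak in both lists, red where it overlaps a JunB peak, and dashed lines lead to the grey band of peaks that are not listed. All 7 lines of Il1rl1 run downwards and both lines of Il18r1 run upwards, but both peaks drawn under Il18r1 also lie within 50 kb of a TSS of Il1rl1.

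At Il1rl1 (ENSMUSG00000026069.9, chr1:40486415-40522260, plus strand), binding lay mainly in the intergenic region upstream of the gene. The site 16.4 kb upstream of its first TSS stood near the top of every Junb-sufficient list: place 291 of JunB (0.981%), place 143 of BATF (1.05%) and place 355 of IRF4 (1.14%). This BATF peak was the highest at any of the 6 loci. In Junb-deficient cells its IRF4 peak was listed at place 3227 (11.1%), a shift of 9.97 points that 17.6% of the pairs from the same decile of the list matched or passed.

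The site 36.2 kb upstream of Il1rl1 differed more between the lists. JunB stood at place 730 (2.46%), BATF at 5194 (38.3%) and IRF4 at 5884 (18.9%), and in Junb-deficient cells IRF4 stood at place 21385 (73.7%). This shift of 54.73 points was matched by 3.38% of the pairs from the same decile. The site 43.2 kb upstream, with JunB at place 13813 (46.6%), BATF at 6414 (47.3%) and IRF4 at 7027 (22.6%), had no IRF4 peak in Junb-deficient cells, where the nearest was centred 7.09 kb away.

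A second missing peak lay in an intron of Il1rl1, 4.21 kb downstream of a TSS, where IRF4 (place 12407, 39.9%) overlapped JunB (place 13814, 46.6%) without BATF. The other 2 missing peaks, 28.4 kb upstream (86.9% down the list) and 0.611 kb downstream of a TSS (48.1%), overlapped neither JunB nor BATF. The peak 2.08 kb upstream of the first TSS, the closest to it, overlapped BATF (place 5502) without JunB and was kept, at place 12807 (41.2%) and then 14787 (50.9%). By flow cytometry, the paper found no loss of ST2 in Junb-deficient splenic Treg cells with low CD62L. From RNA, it placed Il1rl1 among genes whose expression BATF promoted and JunB did not, with the BATF genes taken from an earlier study. For neither measure does it state the activation for 60 h that preceded ChIP-seq, so cells and state differ from those of the peaks. Peak lists hold no expression, and how these places relate to it was not tested.

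Il18r1 (ENSMUSG00000026070.8, chr1:40522397-40557699, plus strand), begins just after Il1rl1 ends. Its 2 sites with all 3 factors lay in introns, and at both IRF4 stood higher in the Junb-deficient list. At the site 4.06 kb downstream of a TSS, IRF4 stood at place 1779 (5.72%) and in Junb-deficient cells at place 451 (1.55%), the highest peak of that list at the 6 loci, a shift of -4.17 points that 4.27% of the pairs from the same decile matched. This site combined high IRF4 binding with a JunB peak that stood near the bottom of its list (place 26017, 87.7%) and BATF at place 6790 (50%). At the site 9.87 kb downstream, IRF4 stood at place 3890 (12.5%) and then 1877 (6.47%), a shift of -6.05 points that 15.4% of pairs matched, with JunB at place 6247 (21.1%) and BATF at 9659 (71.2%). Of the other JunB peaks within 50 kb of Il18r1, that in the intron of Il1rl1 at place 13814 overlapped IRF4, and 3, over the TSS of Il18r1, 13.6 kb downstream in an intron (place 19467) and 49.4 kb downstream in Il18rap (place 12438), overlapped neither BATF nor IRF4.

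Il1r2 (ENSMUSG00000026073.7, chr1:40141613-40182064, plus strand), on the same chromosome, had a pair of strong shared sites close together. At the site 30.7 kb upstream, JunB stood at place 128 (0.432%), its highest at any of the 6 loci, BATF at 382 (2.82%) and IRF4 at 368 (1.18%). IRF4 in Junb-deficient cells stood at place 1507 (5.19%), a shift of 4.01 points that 34.5% of pairs matched. At the site 28.8 kb upstream, JunB stood at place 1625 (5.48%) and BATF at 1095 (8.07%), and IRF4 stood at place 687 (2.21%) and then 671 (2.31%). Both JunB peaks held AP-1 letters and both IRF4 peaks stayed in the first 10% of the list.

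Within the introns of Il1r2 the peaks were weak. IRF4 2.84 kb downstream of the TSS (place 24165, 77.7%), on a JunB peak at place 28371 (95.7%), was missing in Junb-deficient cells. There an IRF4 peak was listed 1.11 kb downstream of the TSS instead (place 21999, 75.8%), with its centre 1.73 kb from the missing one. A JunB peak 25.5 kb upstream (place 26016) had no partner.

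Pparg (ENSMUSG00000000440.6, chr6:115311239-115440419, plus strand) has 2 annotated TSSs and held 4 sites with all 3 factors. At the site 45.2 kb upstream of its first TSS, JunB stood at place 688 (2.32%), BATF at 1071 (7.89%) and IRF4 at 527 (1.69%). In Junb-deficient cells this IRF4 peak stood at place 7738 (26.7%), a shift of 24.96 points that 5.45% of pairs in the same decile matched. The site 16.0 kb downstream of the second TSS, in an intron, had JunB at place 669 (2.26%), BATF at 748 (5.51%) and IRF4 at 5409 (17.4%). Its IRF4 peak was missing in Junb-deficient cells, where the nearest one was centred 17.4 kb away.

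The intronic site 33.4 kb downstream of the second TSS had a weak JunB peak (place 21440, 72.3%), BATF at 5038 (37.1%) and IRF4 at 9064 (29.2%), then 20979 (72.3%), a shift of 43.11 points that 7.89% of pairs matched. The intronic site 6.98 kb upstream of the second TSS differed the other way, with IRF4 at place 15061 (48.4%) and then 9021 (31.1%), JunB at place 10146 (34.2%) and BATF at 10466 (77.1%), and 16.1% of pairs stood as much higher. Among the 4 sites of Pparg with all 3 factors, IRF4 was thus lower at 2, higher at 1 and missing at 1.

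Pparg also had 3 IRF4 peaks with neither JunB nor BATF. The one 39.8 kb upstream stood at place 6963 (22.4%) and then 24177 (83.3%), a shift of 60.88 points, the largest at the 6 loci, which 2.84% of pairs matched. Those 18.6 kb (23.8% down the list) and 21.4 kb (58.4%) downstream of a TSS were missing. The largest shift is that of 1 peak, its relation to JunB was not tested, and an unlisted peak need not be an unbound site. A JunB and a BATF peak 8.76 kb downstream of the second TSS (places 14139 and 10945) had no IRF4 peak in either genotype, a JunB peak stood alone 17.0 kb upstream of it (place 27502), and 1 IRF4 peak was listed only in Junb-deficient cells (place 25613).

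Nfil3 (ENSMUSG00000056749.7, chr13:53062578-53076442, minus strand) kept all 5 IRF4 peaks. At the intronic site 4.72 kb downstream of its TSS, JunB stood at place 2469 (8.32%), BATF at 1091 (8.04%) and IRF4 at 1094 (3.52%), then 735 (2.53%). Its JunB peak held an ISRE match, GAAACTGAAA, and no AP-1 letters. At the site 4.90 kb upstream, JunB stood at place 1076 (3.63%), BATF at 1076 (7.93%) and IRF4 at 1188 (3.82%), then 4128 (14.2%), a shift of 10.4 points that 17.0% of pairs matched. The neighbouring JunB peak with the AICE match (place 4352, 14.7%) overlapped this BATF peak but ended 13 bp from the IRF4 peak.

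The third shared site of Nfil3, 11.1 kb downstream in an intron, had JunB at place 6175 (20.8%), BATF at 3209 (23.6%) and IRF4 at 4454 (14.3%), then 5297 (18.2%). IRF4 17.7 kb upstream, at JunB (place 9710, 32.7%) without BATF, stood at 20.0% and then 19.6% of the list. The IRF4 peak 43.4 kb upstream, with neither JunB nor BATF, stood at 63.6% and then 86.6%.

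Areg (ENSMUSG00000029378.4, chr5:91568641-91577458, plus strand) had the weakest binding. Its only Junb-sufficient IRF4 peak lay 15.2 kb upstream near the bottom of the list (place 27171, 87.4%), on a JunB peak at place 12840 (43.3%), the highest of the 3 there. It was missing in Junb-deficient cells, which listed an IRF4 peak 33.2 kb upstream (place 23484, 80.9%). The JunB peaks 24.8 kb upstream (place 24620, 83.0%) and 4.44 kb downstream in an intron (place 16714, 56.4%) had no partner, although both held AP-1 letters.

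The plot of JunB and IRF4 places sets the 14 sites with all 3 factors side by side. The 6 sites in the first 5% of the IRF4 list had JunB peaks in the first 10% of theirs, whereas the Il18r1 site at 5.72% had one at 87.7%. The place of IRF4 ranged from 1.14 to 48.4% of its list. The 2 sites whose IRF4 peak was missing stood at 17.4% (Pparg) and 22.6% (Il1rl1), where 12.4 and 19.7% of all IRF4 peaks in those deciles were missing. The Pparg site and that 36.2 kb upstream of Il1rl1 shared a pattern, with JunB in the first 5% of its list and IRF4 in the second decile. Over the genome, in classes set after these values were seen, 560 IRF4 peaks of the second decile overlapped a JunB peak of the first decile, and 81 of these were missing (14.5%, 11.7 to 17.7%), against 43 of 514 with no JunB peak (8.37%, 6.12 to 11.1%). Kept peaks shifted by a median of 8.48 and -0.587 points in these classes. In the third decile the shares were 28.2% and 15.4%. In the first decile, where 7 of the 14 sites stood, the missing shares were in the other order, with overlapping intervals. There 78 of 1762 were missing (4.43%, 3.51 to 5.49%) where JunB stood in its first decile and 8 (7.92%, 3.48 to 15%) with no JunB peak. Kept peaks of the first decile shifted by a median of 1.43 and -0.178 points in these classes, the same order as in the second. These shares are a description.

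**Figure D4:**
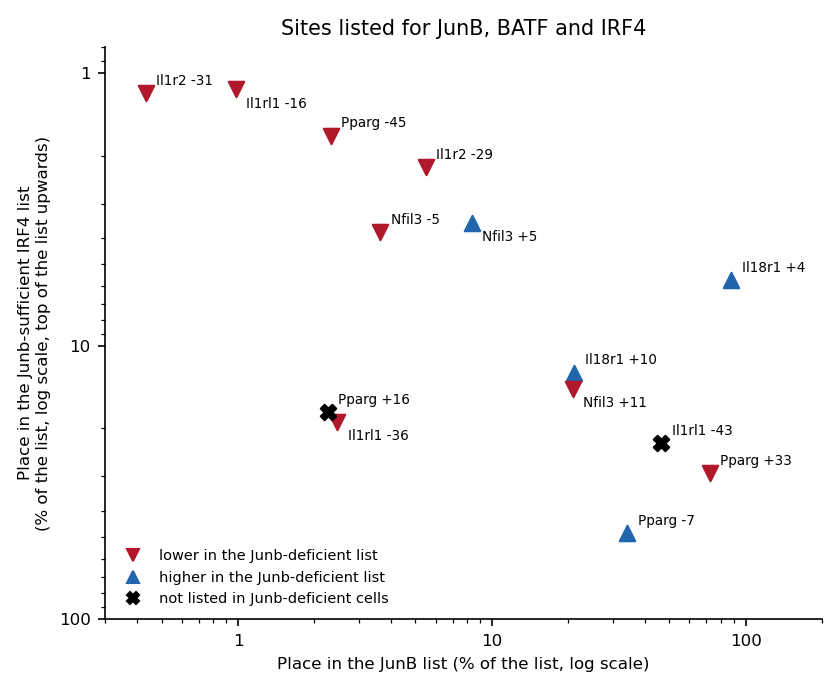
The 14 sites listed for JunB, BATF and IRF4, each by its place in the JunB list (x axis) and in the Junb-sufficient IRF4 list (y axis), both in percent of the list on a log scale with the top of the IRF4 list upwards. Symbols show whether IRF4 stood lower (8 sites), higher (4) or was not listed (2) in Junb-deficient cells, and labels give the nearest gene and the distance from its nearest TSS in kb. The Il18r1 site at 87.7% of the JunB list stands apart from the other high IRF4 peaks.

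Missing and kept IRF4 peaks were found both with and without AP-1 letters. Of 7 IRF4 peaks with AP-1 within 100 bp of the centre, 3 were missing (42.9%, 9.9 to 81.6%), and of 18 without, 6 were missing (33.3%, 13.3 to 59%). Over all IRF4 peaks the shares were 43.0% and 32.1%. The 3 with AP-1 were the Pparg peak 16.0 kb downstream of the second TSS and the peaks 28.4 kb upstream and 0.611 kb downstream of a TSS of Il1rl1, and the 4 kept ones stood in the first 2.21% of the IRF4 list.

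A further 33 genes of the same pathway were counted: other IL-1 family receptors, ligands, signalling proteins, the amphiregulin axis, partners of PPARG and tissue Treg regulators. All 33 had at least 1 Junb-sufficient IRF4 peak within 50 kb, 31 had a JunB peak and 24 had a JunB peak that overlapped both partners. Most protein-coding genes also had such peaks, since 25.9% had no IRF4 peak and 35.1% no JunB peak. The share of all genes with a JunB peak overlapping both partners was not counted. Their medians for the 33 genes were 4 IRF4 and 3 JunB peaks per gene, against 2 and 1 over all genes. Of their 122 JunB peaks 53 overlapped both BATF and IRF4 (43.4%, against 30.1% of all), and of their 146 IRF4 peaks 46 were missing in Junb-deficient cells (31.5%, against 35.0% of all). In the other direction 40 of 140 had no Junb-sufficient counterpart (28.6%, against 30.4%). The overlap of 43.4% was again set against JunB peaks at any distance from a gene.

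Rora, which encodes a nuclear receptor of tissue Treg cells, had the most IRF4 peaks, 11 with 13 of JunB. Il1rl2, Tollip and Cd36 had the fewest, 1 each. Il18rap, the second chain of the IL-18 receptor and the only gene of the list that shared peaks with the 6 loci (11 peaks), had 7 JunB, 5 BATF and 5 IRF4 peaks and all 5 IRF4 peaks had a Junb-deficient counterpart. Il1rl1, with 9 IRF4 peaks and 4 missing, lies on the other side of Il18r1. For comparison, the Treg genes Foxp3, Il2ra and Ctla4 had 3, 2 and 12 Junb-sufficient IRF4 peaks and 6, 3 and 8 in Junb-deficient cells.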

How the data were processed

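ChIP-seq peak lists of 4 libraries were analysed. Bowtie2 alignment to mm9 was done by the authors, who called peaks with HOMER (version 4.8 in the submitters' processing notes) in each library by itself, with no control library in the recorded command. Per the file headers, peaks passed a false discovery rate of 0.001 and stood 4-fold above the surrounding 10 kb, a filter that removed 5.25% of putative JunB peaks and 36.2 to 37.4% in the other libraries, so an unlisted peak need not be an unbound site. The deposited score was 1 for every peak and was not used. Recorded tags ranged from 21127029 to 27399986.

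TSSs came from the GENCODE annotation of mm9, and 0 peaks lay beyond a chromosome end of that assembly. Overlap meant at least 1 bp. Shares have exact Clopper-Pearson 95% intervals. No test between genotypes was made with 1 library each. Python 3.11.15, NumPy 2.4.6 and SciPy 1.17.1 were used, with figures by matplotlib 3.10.9, and the procedures were tested on simulated data. Motifs were fixed letters on the reference.

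The 6 genes, the pathway list and the rules were chosen with earlier results of these data known. Peaks named in full covered a TSS, lay at sites of all 3 factors, were missing or gained at a JunB or BATF peak, stood highest in a list, or moved by 25 points or more. Other peaks were given by counts and ranges, and some by their place. Of the pathway genes, those with the most and fewest IRF4 peaks or with shared peaks were named.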

Additional observations from a re-analysis of the deposited data

How the results depend on the processing

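The shares and counts over the 6 loci were recomputed under 41 alternatives, and 33 stayed within the interval or within 1.5 times of the value given. Some of these could not move. All annotated TSSs of the 6 genes were TSSs of protein-coding transcripts, so keeping only those left every value the same, also for single genes. The exchange of antibodies could not change the share of JunB peaks overlapping both partners. The intervals are wide, so staying within them is a weak criterion. The numbers of peaks depended on the window. Within 25 kb there were 10 BATF, 16 Junb-sufficient IRF4 and 10 Junb-deficient IRF4 peaks, and within 100 kb there were 41 JunB, 27 BATF, 46 Junb-sufficient IRF4 and 37 Junb-deficient IRF4 peaks. With the first 50% of every list, the share of Junb-deficient IRF4 peaks without a Junb-sufficient counterpart was 0 (0 of 11), since all 3 such peaks stood in the last 50%. The share of JunB peaks overlapping both partners ranged from 42.1 to 58.5%, that of missing IRF4 peaks from 18.8% (antibodies exchanged) to 45%, and that of IRF4 peaks with AP-1 or AICE letters from 18.8 to 40%. Of 113 alternatives for single genes, 82 stayed within these limits and 31 did not. No paired analysis was possible because each condition had 1 library. Peaks listed or not listed are the only outcome, tag counts per peak were not used here, and differences below the calling threshold were not detectable.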
